A study of Mus musculus with 15 samples.

Results

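The 25 kinases of the mitogen-activated protein (MAP) kinase cascade that could be tested on these arrays did not move as a block when mouse spleen lymphocytes were activated. After 4 h of lipopolysaccharide (LPS) the B cell arrays showed both tested p38 genes, Mapk11 and Mapk14, more than 10 times lower. Further probe sets of Mapk14 differed in the size of their fall. Of the 10 tested MAP3K genes 8 fell, where 42.3% of all genes did. After 4 h of concanavalin A (ConA) the T cell arrays showed Map2k3 and Map3k8 more than 4 times higher, and Mapk11 rose. The cascade genes were taken as those whose symbol is Mapk, Map2k, Map3k or Map4k followed by a number, read from probe sets listed with 1 gene. This gave 37 of the 18194 genes on the array, represented by 94 probe sets. Among them Map2k3os, an antisense transcript, and Map3k7cl, whose product is not a kinase, were set aside, which left 35 kinases with 92 probe sets. For each gene the probe set whose mean across the 15 arrays was highest was used.

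The series title names Myc as a general amplifier of expression, and its design sets activated against resting lymphocytes. Cells came from spleens of B6x129 mice, a mixed background. Each of the 5 groups held 3 arrays. Unstimulated B cells and unstimulated T cells, both labelled 0 h, were the controls. B cells were also taken 4 h into exposure to LPS at 25 ug/ml, and T cells 4 h and 14 h into exposure to ConA at 7.5 ug/ml. The labels do not say whether arrays of a group came from separate animals or cultures, so p-values measure the spread between these arrays, which may be technical. No group was cultured without a stimulus, so the effects of culture and of stimulus cannot be told apart, nor can those of lineage and of stimulus where the lineages' responses are compared. Values are log2 GCRMA signals made from 100 ng of RNA per sample. They fall to a floor of 2.24, within 0.01 of which 42.3% of all values lie, and a change to or from that floor understates the true change. The arrays give RNA levels and say nothing of kinase protein or of its phosphorylation.

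MAP kinase signalling runs through tiers of kinases, each phosphorylating the next. MAP4Ks and small GTPases act on MAP3Ks, MAP3Ks phosphorylate MAP2Ks, and MAP2Ks phosphorylate a MAP kinase on a threonine and a tyrosine. The best known terminal kinases are the ERK, JNK and p38 families, and in lymphocytes they carry signals from antigen receptors and Toll-like receptors to transcription factors such as AP-1. Phosphatases of the DUSP family switch the terminal kinases off again.

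The arrays bore out their lineage labels. At 0 h all 11 tested B cell markers of the 12 listed were at least 2-fold higher in B cells, and all 11 tested T cell markers of the 12 listed at least 2-fold lower. Myeloid and erythroid markers were present as well. Of 8 myeloid markers in B cells, 1 lay below a level of 2.5 before and 2 after LPS, and the log2 of their summed signal went from 12.53 to 12.64 at 0 h to 11.55 to 11.77 after LPS. Of the 6 tested, 5 fell at least 2-fold with LPS (Csf1r, Lyz2, Adgre1, S100a9 and S100a8, with changes of -6.97 to -3.01), among them Csf1r, a macrophage growth factor receptor, from a mean of 9.33 to 2.37. The exception was Mpeg1, another macrophage gene, at 11.15 and 11.48. In T cells the summed myeloid signal was 8.92 to 9.31 at 0 h, 10.62 to 11.08 at 4 h and 6.91 to 7.28 at 14 h, with 3 of the 8 markers below 2.5 in each group. At 4 h S100a8 and S100a9 rose by 2.71 and 2.45, Lyz2 changed by -0.98, and the 3 other tested markers were not called. The summed signal of 5 erythroid markers in T cells went from 12.30 to 12.38 at 0 h to 8.07 to 8.24 at 4 h. Whether these other cells take part in the kinase changes was not tested, and in such bulk RNA fewer cells of a type and less RNA per cell cannot be told apart. On 2 T cell arrays, replicate 2 at 0 h and replicate 1 at 4 h, the spiked control transcript dap read 4.59 and 5.94 log2 units higher at its 3′ end than at its 5′ end, against 1.82 to 2.67 on the other T cell arrays. On the B cell arrays this difference was 0.90 to 1.44. The signal of 18S ribosomal RNA was 5.53 to 6.62 on B cell arrays and 9.24 to 11.65 on T cell arrays. The lineages' arrays thus differ in these controls, and what part this has in differences between B and T cells was not tested.

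Of the 35 kinases, 25 reached a mean of 5 in at least 1 group and were tested, namely 6 of 11 MAP kinases, 6 of 6 MAP2Ks, 10 of 15 MAP3Ks and 3 of 3 MAP4Ks. Among the MAP kinases that did not reach it, Mapk4, Mapk13 and Mapk15 had highest group means at the floor of 2.24, Mapk10, the JNK gene known from neurons, had 2.42, and Mapk12 had 3.73. In RefSeq's mouse gene table (GRCm38.p6) Mapk12 lies next to Mapk11 on chromosome 15 and Mapk13 is a neighbour of Mapk14 on chromosome 17. The tested p38 genes thus each sit beside a p38 gene whose probe set did not reach the level set for testing. Among the MAP3Ks, Map3k6 and Map3k21 stayed at 2.24, Map3k9 at 3.26, Map3k20 at 4.38 and Map3k10 at 4.74 in the group where each was highest. Map2k7, Map3k13, Map3k15, Map3k19, Map4k2 and Map4k3 were not analysed here. A member that was not tested has no count below.

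With LPS in B cells 7 of the 25 kinases rose and 14 fell at an adjusted p under 0.05, where 37.6% of all 9045 genes tested rose, 42.3% fell and 79.9% were called in either direction. At least 2-fold, 4 rose and 7 fell, where 18.7% of all genes rose, 24.1% fell and 42.8% moved that far in all. Map2k6, among the 7, passed the level in B cells at 0 h alone, which fixes the direction of its LPS change. The median change of the 25 was -0.56 on the log2 scale, against -0.05 over all genes. With ConA at 4 h in T cells 9 kinases rose and 10 fell, where 33.4% of all genes rose, 32.5% fell and 65.9% were called. At least 2-fold, 4 rose and 2 fell, where 9.34% of all genes rose, 11.5% fell and 20.9% moved that far. The median was 0.09 for the kinases and 0.00 for all genes. At 14 h 11 rose and 9 fell, where 36.6% of all genes rose, 31.9% fell and 68.4% were called. At least 2-fold, 1 rose and 2 fell, where 10.5% of all genes rose, 11.0% fell and 21.5% moved that far. The median was 0.21 against 0.03. The 14 h count of rises was 7 without T cell replicate 3 at 0 h. Thus 84.0%, 76.0% and 80.0% of the kinases were called in the 3 comparisons, and such counts, on 25 genes, are not read as setting the cascade apart from the rest of the array. Both T cell comparisons use the same 0 h arrays.

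**Figure D1:**
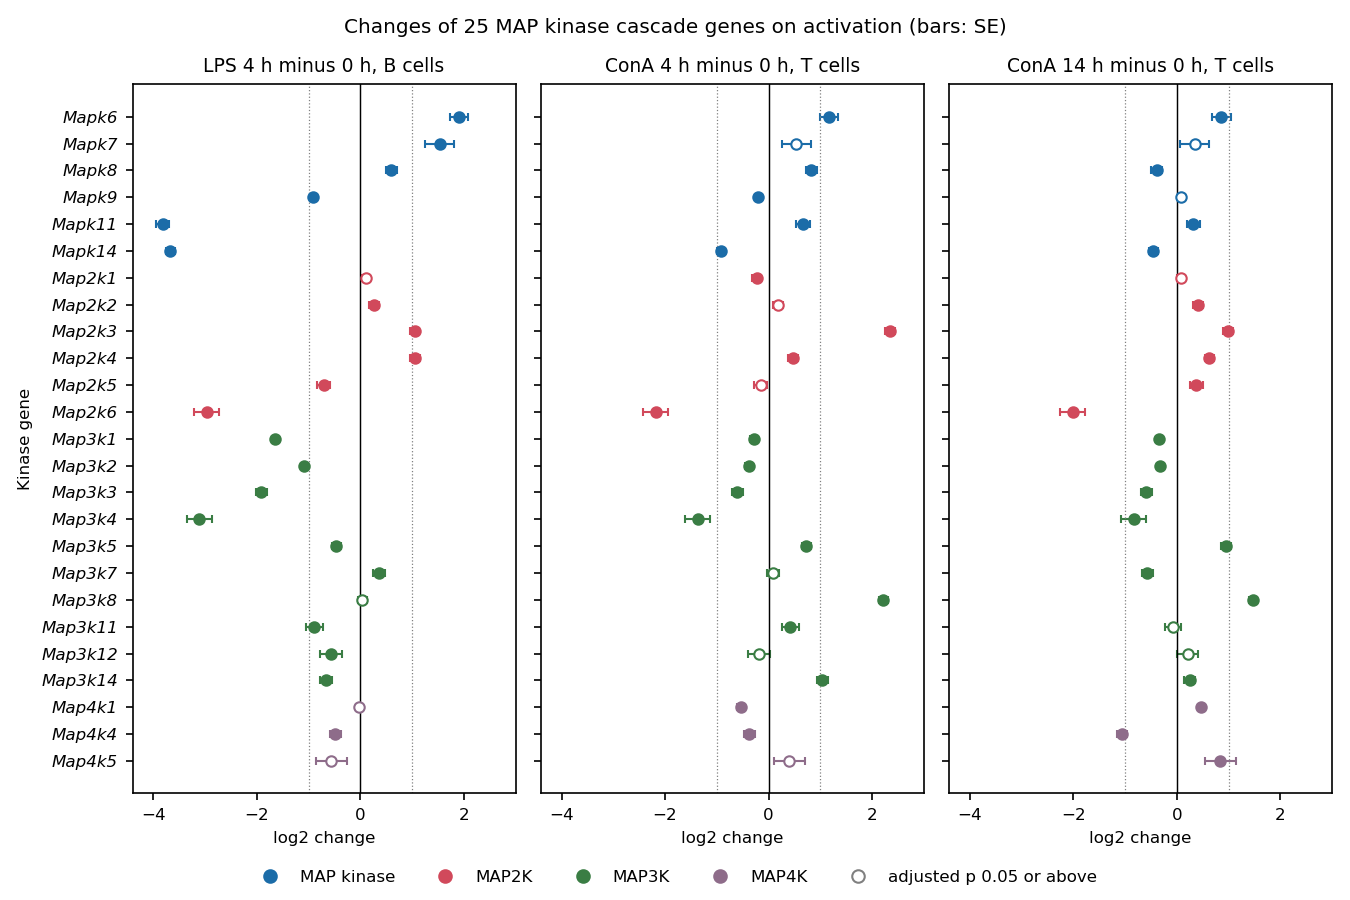
Log2 change of each of the 25 tested kinase genes (rows, coloured by tier) for LPS at 4 h in B cells and ConA at 4 h and 14 h in T cells, each against 0 h. Points are limma estimates, bars are standard errors, open points have an adjusted p of 0.05 or above, and dotted lines mark a 2-fold change. Mapk11 at -3.82 and Mapk14 at -3.67 lie farthest left in the LPS panel, and Map2k3 at 2.35 and Map3k8 at 2.22 farthest right in the ConA 4 h panel.

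The p38 branch held the largest changes. Mapk14 encodes p38 alpha, the form found in most tissues, and Mapk11 encodes p38 beta. Map2k3 and Map2k6 encode the MAP2Ks that phosphorylate p38. Since both tested p38 genes fell with LPS while their activators moved in opposite directions, the 250 bases before the first listed start of each of the 4 genes are shown first. They are RefSeq sequences of GRCm38.p6, written 5′ to 3′ in the direction of the gene, at chr15:89149607-89149856 on the minus strand for Mapk11, chr17:28691092-28691341 on the plus strand for Mapk14, chr11:60931804-60932053 on the plus strand for Map2k3 and chr11:110398852-110399101 on the plus strand for Map2k6. Capitals mark a match to the AP-1 motif TGANTCA.
Mapk11: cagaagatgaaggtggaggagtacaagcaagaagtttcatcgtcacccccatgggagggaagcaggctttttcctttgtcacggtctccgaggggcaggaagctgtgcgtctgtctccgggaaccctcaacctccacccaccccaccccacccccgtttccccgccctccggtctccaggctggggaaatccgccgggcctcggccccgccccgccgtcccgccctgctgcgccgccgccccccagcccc
Mapk14: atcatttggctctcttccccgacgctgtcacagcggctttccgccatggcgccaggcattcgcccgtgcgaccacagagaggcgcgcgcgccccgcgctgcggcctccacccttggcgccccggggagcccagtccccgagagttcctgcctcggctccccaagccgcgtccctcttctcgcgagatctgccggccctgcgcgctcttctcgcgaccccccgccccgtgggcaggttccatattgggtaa
Map2k3: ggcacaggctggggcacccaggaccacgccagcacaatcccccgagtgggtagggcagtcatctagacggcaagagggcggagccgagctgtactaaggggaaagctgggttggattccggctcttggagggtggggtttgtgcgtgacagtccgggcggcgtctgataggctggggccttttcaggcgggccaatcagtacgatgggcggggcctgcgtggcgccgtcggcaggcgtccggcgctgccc
Map2k6: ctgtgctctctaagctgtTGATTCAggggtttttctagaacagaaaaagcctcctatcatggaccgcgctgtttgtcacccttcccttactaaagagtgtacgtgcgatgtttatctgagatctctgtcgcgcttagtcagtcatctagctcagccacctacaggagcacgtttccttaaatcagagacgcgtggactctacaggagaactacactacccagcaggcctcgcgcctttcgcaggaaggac

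The 4 windows differ in base composition, with 68.0% G and C for Mapk11, 70.4% for Mapk14, 67.6% for Map2k3 and 50.4% for Map2k6. Over the 22 of the 25 tested kinases whose window was used, the median was 67.0%, with Map2k6 the lowest and 85.2% the highest, against 52.4% over all 32851 windows. Map3k2, Map3k8 and Map4k4 had no window used and were not searched. Map3k2 and Map3k8 lie on chromosome 18, whose kinases were left out. Where a gene has several listed starts, as Map2k6 and Mapk14 do, the first was used and the others were not searched. The E-box CACGTG, the AP-1 motif TGANTCA, the cyclic AMP response element TGACGTCA and the NF-kappaB site were searched on both strands. The AP-1 motif was found in 1 of the 22, Map2k6, starting 232 bases before the start site, and in 6.75% of all windows. The E-box, the Myc and Max motif, was found in Map4k1 alone, 123 bases before its start, and in 6.02% of all windows. The NF-kappaB site was found in Map3k7 alone, 92 bases before its start, and in 3.9% of all windows, and the cyclic AMP response element in 0 of the 22 and 1.55% of all windows. The 3 other windows printed above hold none of these letters.

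Mapk14 read 10.37, 10.35 and 10.32 in B cells at 0 h and 6.76, 6.50 and 6.76 after LPS. In T cells it read 10.49, 10.54 and 10.31 at 0 h, 9.54, 9.55 and 9.51 at 4 h, and 9.92, 10.01 and 10.07 at 14 h. The LPS arrays were the lowest of the 15, far below all others, and the T cell arrays dipped at 4 h and lay between at 14 h, with no overlap between the 3 T cell groups. It fell by 3.67 ± 0.08 (SE, 12.7-fold) with LPS, at a limma adjusted p of 6.08e-14. With ConA it fell by 0.92 ± 0.08 at 4 h (adjusted p 3.03e-07) and by 0.45 ± 0.08 at 14 h (adjusted p 0.000265).

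Mapk11 read 7.41, 7.28 and 7.12 in B cells at 0 h and 3.63, 3.12 and 3.61 after LPS. In T cells the values were 6.59, 6.77 and 6.59 at 0 h, 7.20, 7.31 and 7.46 at 4 h, and 6.89, 7.07 and 6.96 at 14 h. The p38 beta gene thus went down in B cells and slightly up in T cells, with no overlap of the arrays in either lineage. The LPS change was -3.82 ± 0.13 (14.1-fold, adjusted p 3.14e-12), and since the LPS arrays approach the floor it is a lower bound. The ConA changes were 0.67 ± 0.13 at 4 h (adjusted p 0.00041) and 0.32 ± 0.13 at 14 h (adjusted p 0.0407), and the latter was called in 10 of 15 fits that each left out 1 array, and not without T cell replicate 1 or 3 at 0 h, 2 at 4 h, or 2 or 3 at 14 h (adjusted p 0.0501 to 0.127).

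**Figure D2:**
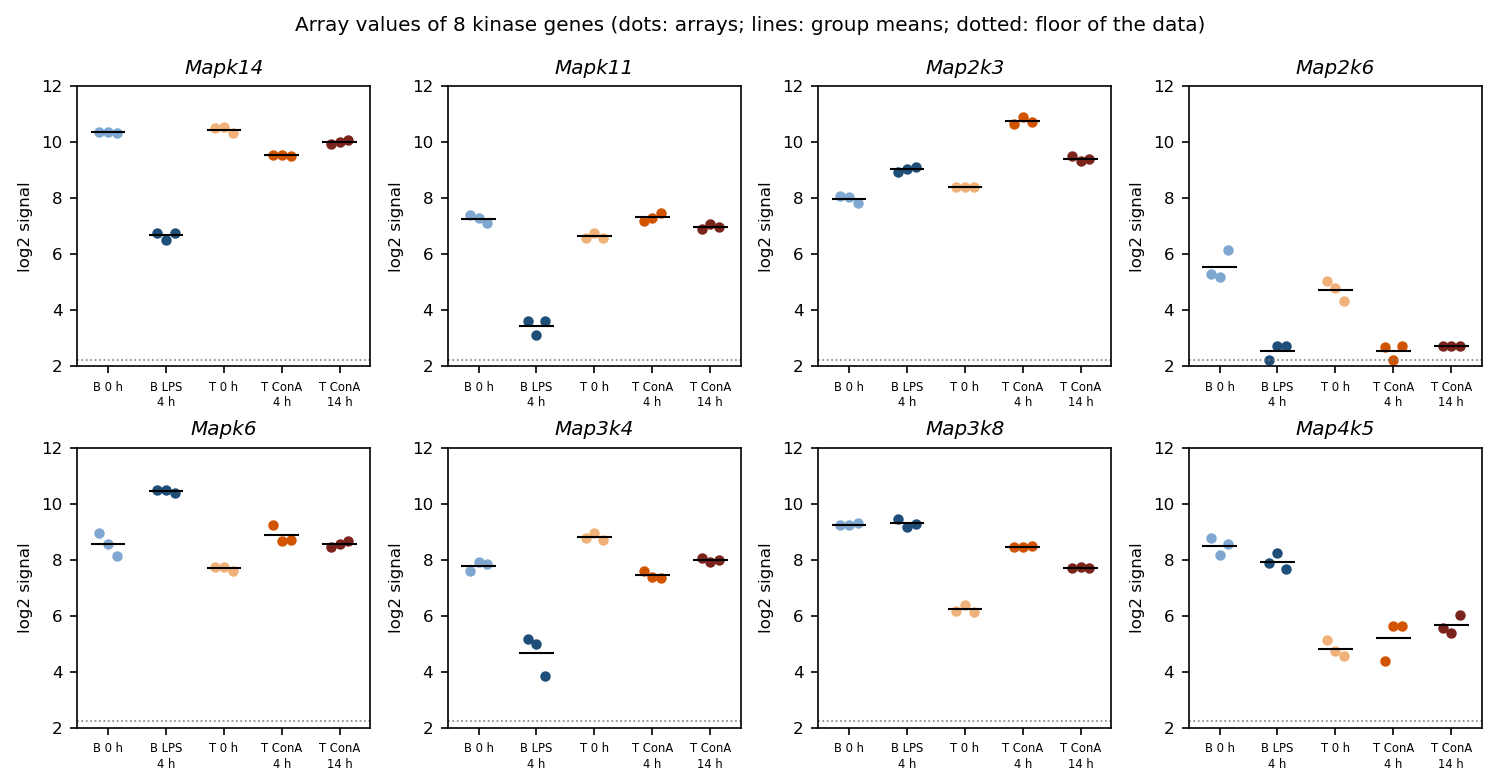
Log2 signal of 8 kinase genes on every array (dots) by group, with group means (lines) and the floor of 2.24 (dotted). The 3 LPS arrays stand apart at the bottom for Mapk14 and Mapk11, Map2k6 drops to near the floor in every stimulated group, and Map3k8 rises from 6.24 at 0 h to 8.46 at 4 h in T cells while the B cell groups stay at 9.25 and 9.29.

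Map2k3, upstream of p38, went the other way. It read 8.06, 8.04 and 7.82 in B cells at 0 h and 8.93, 9.04 and 9.11 after LPS. In T cells it read 8.41 on all 3 arrays at 0 h, 10.64, 10.91 and 10.73 at 4 h, and 9.50, 9.33 and 9.38 at 14 h. Every stimulated array lay above the unstimulated arrays of its lineage, and the T cell rise was largest at 4 h. The gene rose by 1.05 ± 0.09 with LPS (2.08-fold, adjusted p 5.35e-08), by 2.35 ± 0.09 with ConA at 4 h (5.09-fold, adjusted p 3.85e-11) and by 0.99 ± 0.09 at 14 h (1.99-fold, adjusted p 2.37e-07).

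Map2k6, the other p38 activator, fell in both lineages. The B cell arrays read 5.28, 5.19 and 6.14 at 0 h and 2.24, 2.73 and 2.73 after LPS. The T cell arrays read 5.05, 4.81 and 4.34 at 0 h, 2.69, 2.24 and 2.73 at 4 h, and 2.73 on all 3 arrays at 14 h. All 9 stimulated arrays lay at 2.73 or below, near the floor, so that the changes understate the falls. The gene reached level 5 in B cells at 0 h alone, with a mean of 5.54 against 4.74 in T cells at 0 h. A fall with LPS and a higher level in B cells were thus built into its passing. The LPS change of -2.97 ± 0.24 is given as a description. With ConA the changes were -2.18 ± 0.24 at 4 h (adjusted p 2.78e-06) and -2.01 ± 0.24 at 14 h (adjusted p 5.83e-06).

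The probe sets of Mapk14 did not give 1 picture. Of the 5 that reached level 5, 1416704_at, 1451927_a_at and 1459617_at did so in B cells at 0 h alone, so that a fall with LPS and a higher level in B cells were built into their passing, and their values are given as a description. They changed by -3.33, -3.81 and -1.89 with LPS. The fourth further one, 1442364_at, passed in all groups but LPS and fell by 2.30 ± 0.29 (adjusted p 6.27e-06). At 0 h the one used, 1416703_at, had means of 10.35 in B cells and 10.45 in T cells, a difference of -0.10 ± 0.08 (adjusted p 0.276), yet 1416704_at read 7.51 and 2.54, 1451927_a_at 7.02 and 2.53, and 1459617_at 6.46 and 4.60. These 3 differed by 4.97, 4.48 and 1.86 between B and T cells. In a fit of all 16238 probe sets at level 5, 1442364_at had means of 6.99 and 7.63 in the lineages (adjusted p 0.0558). In T cells with ConA at 4 h the probe sets 1416704_at, 1451927_a_at and 1459617_at changed by 0.32, 0.01 and 0.00 and were not called, at adjusted p of 0.175, 0.975 and 0.992, from means of 2.54, 2.53 and 4.60 at 0 h, and 1442364_at fell by 1.92 ± 0.29 (adjusted p 6.4e-05). At 14 h 1442364_at changed by -2.27 against 0 h, where the one used changed by -0.45. There 1416704_at, 1451927_a_at and 1459617_at changed by 0.49, 0.09 and -0.16. Values for Mapk14 in B against T cells, and with ConA, therefore differ with the probe set. In the fit of all probe sets 76.4% were called with LPS, 61.5% with ConA at 4 h, 64.7% at 14 h, 75.5% between B and T cells at 0 h, and 62.0% for the difference in response at 4 h. The files used here do not say which transcripts each probe set reads.

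**Figure D3:**
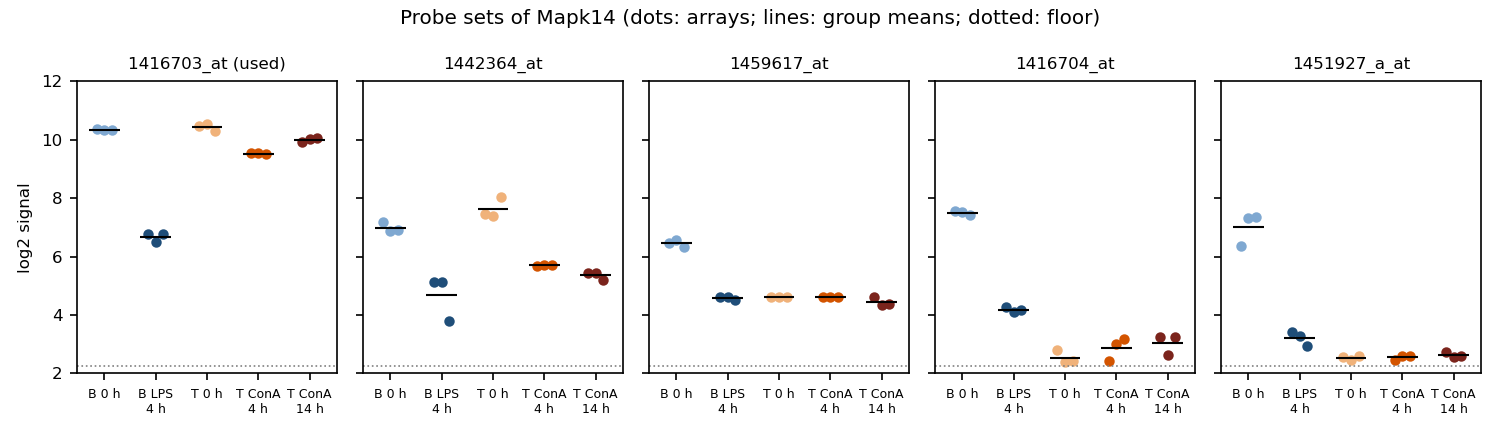
Log2 signal of the 5 Mapk14 probe sets that reached level 5, on every array (dots) with group means (lines) and the floor (dotted). The LPS group lies below B cells at 0 h in all 5 panels, which the filter fixed for the 3 that passed in B cells at 0 h alone, while T cells at 0 h lie at 10.45 for 1416703_at and at 2.54 for 1416704_at.

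Of the other MAP kinases, Mapk6 (ERK3, an atypical form) rose in both lineages. Its arrays read 8.96, 8.56 and 8.13 in B cells at 0 h and 10.50, 10.49 and 10.38 after LPS. In T cells they read 7.74, 7.75 and 7.61 at 0 h, 9.23, 8.66 and 8.70 at 4 h, and 8.45, 8.57 and 8.66 at 14 h. No stimulated array overlapped the unstimulated ones of its lineage, and B cell arrays at 0 h spread more than those of other groups. The rises were 1.91 ± 0.18 with LPS (adjusted p 2.36e-07), 1.17 ± 0.18 with ConA at 4 h (adjusted p 6.51e-05) and 0.86 ± 0.18 at 14 h (adjusted p 0.0008). Its further probe set 1429963_at rose by 1.34 ± 0.14 with LPS (adjusted p 9.92e-07) but fell by 0.66 ± 0.14 at 14 h (adjusted p 0.000958). Another, 1419168_at, passed the level in the LPS group alone, which fixes its direction there, and stayed at 2.24 on every T cell array.

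Mapk7 encodes ERK5, the terminal kinase of the branch run by Map2k5. It read 4.96, 4.34 and 3.63 in B cells at 0 h and 6.01, 5.57 and 5.97 after LPS. T cell arrays read 5.41, 5.31 and 5.09 at 0 h, 6.29, 5.51 and 5.62 at 4 h, and 5.53, 5.53 and 5.82 at 14 h. The LPS arrays were above all 0 h arrays, by 1.54 ± 0.28 (2.91-fold, adjusted p 0.000149), in a gene whose 0 h arrays in B cells spread over more than 1 log2 unit. In T cells the changes of 0.54 ± 0.28 and 0.35 ± 0.28 were not called, at adjusted p of 0.105 and 0.274.

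At the probe sets used, the JNK genes Mapk8 and Mapk9 changed by less than 2-fold against 0 h. Mapk8 rose by 0.60 ± 0.10 with LPS and by 0.83 ± 0.10 with ConA at 4 h, then lay 0.39 below its 0 h level at 14 h. Between 4 h and 14 h it fell by 1.23 ± 0.10 (adjusted p 5.99e-07), from a mean of 8.63 ± 0.19 (SD, n = 3 arrays) to 7.41 ± 0.14. Its probe sets 1420932_at and 1440856_at rose by more than 2-fold with LPS, by 1.84 ± 0.17 and 1.17 ± 0.14 (adjusted p 2.63e-07 and 4.62e-06). At 14 h they changed by 0.19 and -0.20 against 0 h and were not called, so that value rests on the probe set used. Between 4 h and 14 h they changed by -0.40 and -0.71, under 2-fold. Mapk9 fell by 0.91 ± 0.07 with LPS (adjusted p 3.88e-08) and by 0.20 ± 0.07 with ConA at 4 h (adjusted p 0.0264), the latter not called without the 2 weak arrays (-0.14, adjusted p 0.129), without T cell replicate 1 at 4 h (adjusted p 0.107) or without replicate 1 at 0 h (adjusted p 0.0791).

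Among the other MAP2Ks, Map2k4, an activator of JNK, rose in every stimulated group. It read 7.47, 7.52 and 7.55 in B cells at 0 h and 8.55, 8.44 and 8.72 after LPS. T cell arrays read 8.02, 8.13 and 7.91 at 0 h, 8.63, 8.39 and 8.44 at 4 h, and 8.58, 8.69 and 8.69 at 14 h. The stimulated arrays lay above all 0 h arrays in both lineages. The rises were 1.06 ± 0.09 with LPS (adjusted p 4.9e-08), 0.47 ± 0.09 at 4 h (adjusted p 0.000327) and 0.63 ± 0.09 at 14 h (adjusted p 1.98e-05). Its further probe set 1426233_at passed the level in the LPS group alone, which fixes its direction there, and changed by 0.05 ± 0.23 with ConA at 4 h, where it was not called (adjusted p 0.869).

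Among the MAP2Ks of the ERK branches, Map2k1 and Map2k2, which phosphorylate the ERK kinases, changed by 0.11 and 0.27 with LPS, and of these Map2k2 was called (adjusted p 0.027), but not without B cell replicate 3 at 0 h or LPS replicate 2 or 3 (adjusted p 0.0764 to 0.11). Over the 3 activation comparisons Map2k1 ranged from -0.23 to 0.11 and Map2k2 from 0.18 to 0.41. A further Map2k2 probe set, 1460636_at, rose by 0.67 ± 0.12 with LPS, 0.45 ± 0.12 at 4 h and 0.73 ± 0.12 at 14 h (adjusted p 0.000224, 0.00659 and 0.000171). Map2k1 was called with ConA at 4 h (-0.23, adjusted p 0.0295), but not without the 2 T cell arrays with a weak 5′ control signal (-0.12, adjusted p 0.264), nor without T cell replicate 1 or 2 at 0 h or 1 at 4 h (adjusted p 0.0637 to 0.118). Map2k5, which phosphorylates ERK5, fell by 0.71 ± 0.13 with LPS (adjusted p 0.000185), where Mapk7 rose. This call was lost with the mean of its probe sets (-0.28, adjusted p 0.0579), and its probe sets 1455941_s_at and 1453712_a_at gave -0.38 (adjusted p 0.0347) and -0.05 (adjusted p 0.934). In T cells Map2k5 changed by -0.15 at 4 h (not called, adjusted p 0.336) and 0.38 at 14 h (adjusted p 0.0196), the latter not called without T cell replicate 2 or 3 at 0 h or 1 at 14 h (adjusted p 0.0508 to 0.0721).

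In the MAP3K tier, with LPS 8 of 10 tested members fell, 1 rose and 1 was not called, and the median change was -0.78. With ConA at 4 h 4 rose and 4 fell with a median of -0.05, and at 14 h 3 rose and 5 fell with a median of -0.20. Of all genes, 42.3% fell with LPS, 32.5% with ConA at 4 h and 31.9% at 14 h.

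Map3k4 (MEKK4), which responds to GADD45 proteins and feeds p38 and JNK, had the largest fall of the tier. It read 7.59, 7.92 and 7.83 in B cells at 0 h and 5.16, 4.98 and 3.86 after LPS. In T cells it read 8.77, 8.96 and 8.71 at 0 h, 7.58, 7.38 and 7.36 at 4 h, and 8.06, 7.90 and 8.0 at 14 h. The groups of each lineage did not overlap, and 1 LPS array lay more than 1 log2 unit below the other two. The changes were -3.11 ± 0.24 with LPS (8.62-fold, adjusted p 3.03e-08), -1.37 ± 0.24 at 4 h (adjusted p 0.000214) and -0.83 ± 0.24 at 14 h (adjusted p 0.00811). Its further probe sets 1421450_a_at and 1450253_a_at changed by -1.90 and -2.41 with LPS and by -1.55 and -1.93 with ConA at 4 h, all called, and 1447667_x_at passed the level in T cells at 0 h alone.

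Map3k1, Map3k2 and Map3k3 encode MEKK kinases that act on JNK and, for the latter pair, on the ERK5 branch through Map2k5. Map3k1 read 8.93, 8.88 and 8.82 in B cells at 0 h and 7.20, 7.29 and 7.21 after LPS, and 8.99, 9.11 and 8.92, then 8.79, 8.67 and 8.69, then 8.64, 8.67 and 8.67 in T cells at 0, 4 and 14 h. Map3k2 read 8.59, 8.62 and 8.50, then 7.51, 7.42 and 7.53 in B cells, and 9.12, 9.02 and 9.0, then 8.63, 8.67 and 8.71, then 8.62, 8.78 and 8.78 in T cells. Map3k3 read 8.45, 8.46 and 8.45, then 6.74, 6.44 and 6.45 in B cells, and 9.11, 9.32 and 9.01, then 8.76, 8.40 and 8.48, then 8.45, 8.64 and 8.59 in T cells. At the probe sets used, every stimulated array in each of the 3 genes was below all 0 h arrays of its lineage, and the B cell step was the deeper one. With LPS the changes were -1.65 ± 0.06 for Map3k1 (adjusted p 1.6e-11), -1.08 ± 0.07 for Map3k2 (adjusted p 2.05e-09) and -1.91 ± 0.11 for Map3k3 (adjusted p 1.23e-09). In T cells the changes lay between -0.60 and -0.29 at 4 h and between -0.59 and -0.32 at 14 h, with adjusted p from 0.000212 to 0.00131. A further Map3k2 probe set, 1438719_at, showed the reverse order, with a change of -0.22 ± 0.29 with LPS (not called, adjusted p 0.5) and -1.66 ± 0.29 with ConA at 4 h (adjusted p 0.000258). For Map3k3 in T cells, 1426687_at was not called, at -0.12 and -0.04 at 4 h and 14 h (adjusted p 0.188 and 0.676). There 1426686_s_at was called, at -0.98 and -0.87. For Map3k1, 1443540_at changed by -0.09 at 4 h (not called, adjusted p 0.643) and -0.82 at 14 h (adjusted p 0.000555).

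Map3k8 and Map3k14 rose in T cells and did not rise in B cells. Map3k8 (Tpl2) is bound by the NF-kappaB precursor p105 and activates Map2k1 when freed. It read 9.22, 9.25 and 9.29 in B cells at 0 h and 9.46, 9.16 and 9.26 after LPS. T cell arrays read 6.18, 6.40 and 6.14 at 0 h, 8.45, 8.45 and 8.48 at 4 h, and 7.69, 7.74 and 7.70 at 14 h. The B cell groups overlapped, and all T cell groups lay below them and apart from each other. The rise in T cells was 2.22 ± 0.08 at 4 h (4.65-fold, adjusted p 4.07e-11) and 1.47 ± 0.08 at 14 h (2.76-fold, adjusted p 3e-09), against 0.04 ± 0.08 with LPS in B cells (adjusted p 0.659).

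Map3k14 (NIK) is the kinase that starts the non-canonical NF-kappaB pathway. It read 7.34, 7.53 and 7.26 in B cells at 0 h and 6.53, 6.62 and 7.0 after LPS. In T cells it read 7.36, 7.34 and 7.33 at 0 h, 8.36, 8.43 and 8.37 at 4 h, and 7.53, 7.66 and 7.60 at 14 h. At the probe set used, the arrays of both lineages overlapped at 0 h and lay apart at 4 h. The changes were -0.66 ± 0.11 with LPS (adjusted p 4.84e-05), 1.04 ± 0.11 with ConA at 4 h (2.06-fold, adjusted p 1.03e-06) and 0.25 ± 0.11 at 14 h (adjusted p 0.0471). The 14 h call held in 5 of the 15 fits that each left out 1 array, and not without B cell replicate 1 at 0 h or any 1 of the 9 T cell arrays (adjusted p 0.0522 to 0.128), and it was lost without the 2 weak arrays (adjusted p 0.0977).

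The other 4 MAP3Ks changed by less than 2-fold in the 3 activation comparisons at the probe sets used. Map3k5 (ASK1), a kinase activated by oxidative stress, fell by 0.46 ± 0.09 with LPS (adjusted p 0.000226) and rose by 0.73 ± 0.09 at 4 h and 0.95 ± 0.09 at 14 h in T cells (adjusted p 5.05e-06 and 3.48e-07). Its further probe set 1421340_at changed by -0.28 ± 0.18 with LPS (not called, adjusted p 0.174). In T cells that probe set rose by 0.76 at 4 h and 1.36 at 14 h (adjusted p 0.00259 and 2.05e-05). Map3k11 (MLK3) fell by 0.89 ± 0.16 with LPS (adjusted p 0.000158) and changed by 0.42 ± 0.16 with ConA at 4 h (adjusted p 0.0356), the latter not called without the 2 weak arrays (0.31, adjusted p 0.118), without T cell replicate 1 at 4 h (0.24, adjusted p 0.178), without replicate 3 at 0 h (adjusted p 0.133) or without replicate 1 at 0 h (adjusted p 0.0616). Map3k12 (DLK) fell by 0.56 ± 0.21 with LPS (adjusted p 0.0225), and by 0.30 without B cell LPS replicate 3, where it was not called (adjusted p 0.126). It also missed the threshold without B cell replicate 2 or 3 at 0 h, at adjusted p of 0.0517 and 0.0656. Map3k7 (TAK1), which sits below Toll-like and antigen receptors and acts on both MAP kinases and NF-kappaB, was the member that rose with LPS, by 0.36 ± 0.11 (adjusted p 0.00673). In T cells the probe set used, 1455441_at, changed by 0.09 ± 0.11 at 4 h (not called, adjusted p 0.493) and fell by 0.57 ± 0.11 at 14 h (adjusted p 0.000317). The 3 further probe sets at level 5, 1419988_at, 1425795_a_at and 1426627_at, rose by 0.69, 1.19 and 1.48 at 4 h (adjusted p 8.9e-05, 0.00392 and 0.0018) and by 0.44, 1.37 and 1.83 at 14 h (adjusted p 0.00283, 0.00143 and 0.000326). The direction of Map3k7 at 14 h thus depends on the probe set, and the mean of its probe sets rose at 4 h (0.59, adjusted p 0.000125).

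In the MAP4K tier, Map4k1 (HPK1), a brake on antigen receptor signalling, read 11.04, 10.98 and 11.15 in B cells at 0 h and 11.02, 11.05 and 11.05 after LPS. In T cells it read 9.19, 9.11 and 9.13 at 0 h, 8.54, 8.68 and 8.58 at 4 h, and 9.60, 9.61 and 9.63 at 14 h. T cell arrays first dropped and then rose past the start with no overlap, while the B cell arrays overlapped. The changes were -0.54 ± 0.06 at 4 h (adjusted p 3.24e-06), 0.47 ± 0.06 at 14 h (adjusted p 1.13e-05) and -0.02 ± 0.06 with LPS (adjusted p 0.823).

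Map4k4 (HGK), which feeds JNK, read 8.62, 8.66 and 8.92 in B cells at 0 h and 8.37, 8.13 and 8.25 after LPS. In T cells it read 10.02, 10.24 and 10.06 at 0 h, 9.93, 9.65 and 9.64 at 4 h, and 8.99, 9.04 and 9.10 at 14 h. Its changes were -0.37 ± 0.10 at 4 h (adjusted p 0.00683) and -1.06 ± 0.10 at 14 h (2.09-fold, adjusted p 7.44e-07) in T cells, and -0.48 ± 0.10 with LPS (adjusted p 0.000739). Its probe sets 1422615_at and 1448050_s_at were not called in these 3 comparisons, with changes of 0.19 and 0.04 with LPS and -0.33 and -0.35 at 14 h. Its probe set 1440609_at was called in all 3. There the changes were -0.92 with LPS, -0.42 at 4 h and -1.41 at 14 h (adjusted p 2.44e-05, 0.0147 and 8.04e-07).

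Map4k5 (GCKR) read 8.76, 8.16 and 8.55 in B cells at 0 h and 7.89, 8.23 and 7.66 after LPS. T cell arrays read 5.13, 4.76 and 4.57 at 0 h, 4.38, 5.65 and 5.62 at 4 h, and 5.57, 5.39 and 6.02 at 14 h. B cell arrays were all above T cell arrays, and the low array at 4 h is 1 of the 2 with a weak 5′ control signal. The 4 h change of 0.40 ± 0.30 was not called (adjusted p 0.268) but was 0.78 and called without those 2 arrays (adjusted p 0.0232). The LPS change of -0.56 ± 0.30 was likewise not called (adjusted p 0.103) and was called without them (adjusted p 0.0313). The 14 h rise was 0.84 ± 0.30 (adjusted p 0.0245), and it was not called without T cell replicate 2 or 3 at 0 h or replicate 3 at 14 h, at adjusted p of 0.061 to 0.102.

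From 4 h to 14 h of ConA 5 kinases rose and 8 fell, where 27.4% of all genes rose, 21.5% fell and 48.9% were called. At least 2-fold, 1 rose and 2 fell, where 4.16% of all genes rose, 3.32% fell and 7.47% moved that far. Without the 2 weak arrays, and also without T cell replicate 1 at 4 h alone, 8 rose. The larger steps were falls of Map2k3 (-1.35 ± 0.09, adjusted p 5.55e-08) and Mapk8 (-1.23 ± 0.10), and a rise of Map4k1 (1.01 ± 0.06, adjusted p 3.19e-08). The Mapk8 probe sets 1420932_at and 1440856_at changed by -0.40 and -0.71, under 2-fold. Map3k14 and Map3k8 changed by -0.79 ± 0.11 and -0.75 ± 0.08 (adjusted p 3.84e-05 and 7.02e-06). At the probe set used, Mapk14 rose by 0.47 ± 0.08 (adjusted p 0.000368). Its further probe sets 1442364_at and 1459617_at changed by -0.35 and -0.16, and 1416704_at and 1451927_a_at by 0.17 and 0.08. Map2k3, Map3k8 and Map3k14 thus stood nearer to their 0 h level at 14 h than at 4 h.

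At 0 h, before stimulation, 9 kinases were higher and 11 lower in B cells than in T cells, where 25.5% of all genes were higher, 51.1% lower and 76.6% called. By at least 2-fold, 5 were higher and 3 lower, where 12.2% of all genes were higher, 20.3% lower and 32.5% either. The 80.0% of kinases called is near the share over all genes, and the count is not read as particular to the cascade. Map2k6, among the 9 higher, passed the level in B cells at 0 h alone, which fixes its direction here. The control signals also differed between B and T cell arrays, and lineage cannot be told apart from that difference. All genes tested had a median difference of -0.27, which became -0.02 with array medians set equal and -0.03 with cyclic loess scaling, and under both of these 11 kinases were higher and 8 lower. Map4k5, Map3k8, Map4k1, Map2k1 and Map3k5 were higher in B cells by 3.67 ± 0.30, 3.01 ± 0.08, 1.91 ± 0.06, 1.66 ± 0.08 and 1.31 ± 0.09, at adjusted p from 3.48e-13 to 7.71e-08. Map4k4, Map3k12 and Map3k4 were lower by at least 2-fold, with differences of -1.37 ± 0.10, -1.29 ± 0.21 and -1.04 ± 0.24 (adjusted p 3.23e-08, 6.46e-05 and 0.00154). The MEK pair parted, with Map2k1 at 11.09 ± 0.14 (SD, n = 3) in B cells and 9.42 ± 0.11 in T cells, and Map2k2 at 8.59 ± 0.11 and 9.39 ± 0.11 (-0.79 ± 0.10, adjusted p 7e-06).

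Several of the resting differences turned with the probe set or the scaling. Further probe sets of Mapk8 differed by -1.91 and -1.36 between B and T cells where the one used read 0.69 ± 0.10 higher. Those of Map3k7 at level 5 read 0.27 to 2.27 higher where the one used differed by -0.42 ± 0.11. Mapk6 (0.85 against -0.51 for 1429963_at), Map3k4 (-1.04 against 0.90 for 1450253_a_at) and Mapk9 (-0.20 against 0.29 for 1421878_at) also split, and all these probe sets were called in the fit of all probe sets. The small Mapk9 difference also became 0.05 and 0.04 and was not called under the 2 scalings. For Map3k1 the probe set used showed no call (-0.13, adjusted p 0.0876). Its further probe set 1443540_at passed the level in B cells alone, which fixes its direction here. The difference of 3.27 at that probe set is given as a description. For Map3k5 the further probe set 1421340_at was also higher in B cells (1.25 ± 0.18, adjusted p 3.02e-05).

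The responses at 4 h were compared directly, as the LPS change in B cells minus the ConA change in T cells. Of the 25 kinases 5 had a higher and 13 a lower response in B cells, where 31.3% of all genes had a higher one, 34.8% a lower one and 66.1% either. By at least 2-fold, 1 was higher and 10 lower, where 13.9% of all genes were higher, 18.5% lower and 32.4% either. The median was -0.71 for the kinases and -0.03 for all genes. Without B cell replicate 3 at 0 h, LPS replicate 3, T cell replicate 2 at 0 h, or T cell replicate 2 or 3 at 4 h, each in turn, 3 had a higher response. In the MAP3K tier 8 of 10 were lower and 0 higher, 7 of them by at least 2-fold, with a median of -1.31. Map3k2, counted as lower at -0.71, turned at its further probe set 1438719_at, with 1.44 ± 0.41 in the fit of all probe sets (adjusted p 0.00844). The other members of the tier, Map3k7 and Map3k12, had differences of 0.28 ± 0.15 and -0.38 ± 0.29 that were not called (adjusted p 0.127 and 0.269). The Map3k7 difference was called, as a higher response in B cells, without the 2 weak arrays (0.38, adjusted p 0.0205), without T cell replicate 1 at 4 h alone (0.41, adjusted p 0.00937) and with array medians set equal (0.36, adjusted p 0.0349). Its 3 further probe sets at level 5 gave -0.30, -0.28 and -0.87, none of them called (adjusted p 0.104, 0.587 and 0.129).

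**Figure D4:**
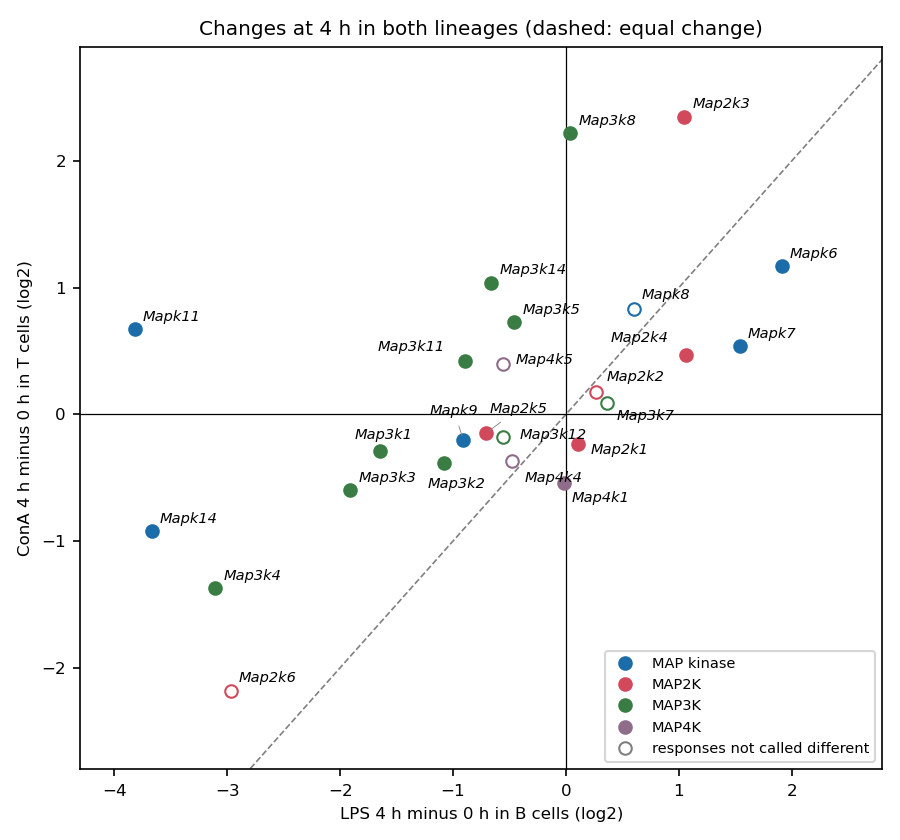
Log2 change with LPS at 4 h in B cells (horizontal) against that with ConA at 4 h in T cells (vertical) for the 25 tested kinase genes, coloured by tier. Filled points have responses called different between the lineages, and the dashed line marks equal change. Mapk11 at -3.82 and 0.67, Mapk14 at -3.67 and -0.92 and Map3k8 at 0.04 and 2.22 lie farthest from that line, on its upper side, and most MAP3K genes lie on that side too.

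Mapk11 showed the largest difference in response, -4.49 ± 0.18 (adjusted p 8.24e-11), followed by Mapk14 at -2.75 ± 0.12 (adjusted p 1.25e-10) and Map3k8 at -2.18 ± 0.12 (adjusted p 1.58e-09). For Mapk14 the probe sets 1416704_at, 1451927_a_at and 1459617_at, which passed in B cells at 0 h alone, gave -3.65, -3.82 and -1.90, and 1442364_at gave -0.38 ± 0.40 and was not (adjusted p 0.435). For Map3k4 the difference of -1.73 ± 0.34 (adjusted p 0.000547) was not called in its 3 further probe sets, at -0.14 to -0.49 with adjusted p of 0.22 to 0.6. At the probe sets used, Map3k14, Map3k5 and Map3k11 moved in opposite directions in the lineages, with differences of -1.70 ± 0.15, -1.19 ± 0.12 and -1.30 ± 0.23 (adjusted p 2.45e-07, 1.28e-06 and 0.000184). The LPS fall of Map3k5 was not called at 1421340_at, where the difference was -1.04 ± 0.26 (adjusted p 0.00321). The ConA rise of Map3k11 lost its call in the fits named above. Map2k6 fell in both, and its responses were not called different (-0.79 ± 0.34, adjusted p 0.0581), a value bounded by the floor on both sides. Mapk7 was the gene with a response at least 2-fold higher in B cells, at 1.00 ± 0.39 (adjusted p 0.0366), but it was called in 7 of the 15 fits that each left out 1 array, and its value was 0.66 without B cell replicate 3 at 0 h (adjusted p 0.0845). Mapk6 at 0.74 ± 0.26 (adjusted p 0.0203) missed the threshold without T cell replicate 2 or 3 at 4 h (adjusted p 0.0532 and 0.051). Mapk8, not called at the probe set used (-0.23, adjusted p 0.174), gave 1.24 and 0.67 at its other probe sets, both called.

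The genes around the cascade were counted from 6 lists, to be read against all genes tested, of which 37.6% rose and 42.3% fell with LPS, 33.4% rose and 32.5% fell with ConA at 4 h, and 36.6% rose and 31.9% fell at 14 h. Of the 7 kinases that act as MAP3Ks under other names (Raf, Mos and Tao), 5 were tested, and with LPS 4 fell and 0 rose, led by Taok3, Araf and Taok2 at -1.21 ± 0.11, -1.19 ± 0.10 and -1.07 ± 0.20. With ConA 3 of the 5 fell at each time and 1, Braf, rose at 4 h by 0.28 ± 0.08, while all changes stayed under 2-fold. At 14 h Taok3 and Araf changed by -0.72 ± 0.11 and -0.50 ± 0.10. Of 18 genes of the Ras input 14 were tested, with 3 up and 9 down with LPS, 1 up and 6 down with ConA at 4 h, and 1 up and 10 down at 14 h. The exchange factors Rasgrp1 and Rasgrp2, which load Ras and Rap with GTP, fell with LPS, with changes of -4.57 ± 0.08 and -4.44 ± 0.09. In T cells Rasgrp2 changed by -4.44 ± 0.09 at 4 h and -3.28 ± 0.09 at 14 h, and Rasgrp1 by -0.39 ± 0.08 and -1.27 ± 0.08.

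Of 17 scaffolds and adaptors 14 were tested. With LPS 4 rose and 8 fell, with ConA at 4 h 5 rose and 7 fell, and at 14 h 4 rose and 8 fell, where 79.9%, 65.9% and 68.4% of all genes were called. The arrestins Arrb1 and Arrb2 fell in every comparison with 0 h, with changes of -2.59 ± 0.22 and -3.08 ± 0.14 with LPS and -2.40 ± 0.22 and -2.02 ± 0.14 with ConA at 4 h. Traf6, the ubiquitin ligase between Toll-like receptors and Map3k7, rose by 1.99 ± 0.13 with LPS. Of 11 kinases activated by MAP kinases 7 were tested, with 3 up and 4 down with LPS and with ConA at 4 h, and 3 up and 3 down at 14 h, beside the same shares of all genes. Mapkapk3 and Mapkapk2, which p38 phosphorylates, rose where Mapk14 fell. Mapkapk3 rose by 1.78 ± 0.25 with LPS and 1.70 ± 0.25 at 4 h, and Mapkapk2 rose by 1.43 ± 0.09 with ConA at 4 h and 1.18 ± 0.09 at 14 h. Rps6ka5 (MSK1), a kinase of histone H3 below ERK and p38, changed by -4.0 ± 0.15 with LPS, -1.67 ± 0.15 at 4 h and -1.79 ± 0.15 at 14 h.

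Of 12 phosphatases of MAP kinases 8 were tested, with 5 up and 2 down with LPS, 5 up and 1 down with ConA at 4 h, and 5 up and 3 down at 14 h. Of all genes 37.6% rose and 42.3% fell with LPS, 33.4% and 32.5% with ConA at 4 h, and 36.6% and 31.9% at 14 h. The median absolute change with LPS was 1.42 for the phosphatases, 0.89 for the 25 kinases and 0.81 for all genes, given as a description. Dusp6, specific for the ERK kinases, went from a mean of 10.40 to 3.07 with LPS (-7.33 ± 0.11, adjusted p 1.05e-15) and from 8.98 to 8.99 with ConA at 4 h (adjusted p 0.936). Dusp5 and Dusp4 rose in both lineages, by 5.76 ± 0.09 and 3.93 ± 0.09 with LPS and by 3.23 ± 0.09 and 3.63 ± 0.09 with ConA at 4 h. Dusp16, which acts on JNK, rose by 2.91 ± 0.12 at 4 h and 3.23 ± 0.12 at 14 h in T cells.

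Of 20 transcription factors phosphorylated by MAP kinases or paired with such factors 16 were tested, with 6 up and 7 down with LPS, 4 up and 6 down with ConA at 4 h, and 3 up and 8 down at 14 h, where 79.9%, 65.9% and 68.4% of all genes were called. Jun, the JNK target in AP-1, rose from a mean of 5.68 to 12.70 with LPS (7.02 ± 0.23, adjusted p 2.47e-12), and Fos from 3.84 to 7.83 (3.99 ± 0.11, adjusted p 4.68e-13). In T cells Jun and Fos already stood at 9.92 and 11.34 at 0 h and read 9.75 and 11.01 at 4 h. Fosl2, another AP-1 subunit, rose by 5.15 ± 0.09 at 4 h and 4.05 ± 0.09 at 14 h. Ets1 fell by 3.69 ± 0.09 with LPS, and Srf fell by 0.97 ± 0.11 at 4 h and fell by 1.57 ± 0.11 at 14 h in T cells.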

How the data were processed

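RNA of 15 samples was measured on 1 mouse array design. The authors deposited log2 values from GCRMA, per the submitters' processing notes, which give no version. GCRMA corrects background from probe sequence and sets all arrays to 1 distribution, which hides a change of total RNA per cell and leaves weak probe sets at a floor. Of 45101 probe sets, 34958 were listed with 1 gene, 932 with several and 9211 with none, control probe sets among them.

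Genes with a group mean of at least 5 in some group were fitted in 1 model of 5 group means (limma 3.58.1 in R 4.3.3), with Benjamini-Hochberg adjustment over all 9045 and calls at an adjusted p under 0.05. The ± beside a change is its standard error. Tested on simulated data for LPS in B cells over 9045 genes, the fit recovered 68% of 1.5-fold and 92% of 2-fold changes. The simulation changed 100 genes at each size, left 8845 unchanged and had no floor. In the data 79.9% of genes were called with LPS, so recovery there was not measured. The number of arrays limits the precision. Values per array are given for kinases changed at least 2-fold in a comparison with 0 h, or the 3 largest changes of a tier with fewer, and up to 3 called genes per list and comparison are named. Myeloid genes, Braf, Mapkapk2 and genes named for a contrast between comparisons were chosen after their values were seen. The kinases and lists were chosen with earlier results of these data known. Alternatives were the filter, array scaling, a trended robust fit, a replicate block, the mean of a gene's probe sets, leaving out each array, leaving out 2 arrays with weak control signal and, added after seeing the data, each probe set alone.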

Additional observations from a re-analysis of the deposited data

Results flagged for a closer look

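The responses of 11 kinases at 4 h differed between LPS in B cells and ConA in T cells by at least 2-fold, by the test of the difference itself (limma, adjusted over all genes). Lineage and stimulus cannot be told apart in it. The response was lower in B cells for Mapk11 by a log2 difference of -4.49, for Mapk14 at -2.75, Map3k8 at -2.18, Map3k4 at -1.73 and Map3k14 at -1.70. It was also lower for Map3k1 at -1.36, Map3k3 at -1.31, Map3k11 at -1.30, Map2k3 at -1.29 and Map3k5 at -1.19. Mapk7 at 1.00 was higher in B cells, but it was called in 7 of 15 fits that each left out 1 array, was 0.66 without B cell replicate 3 at 0 h (adjusted p 0.0845), and was not called with no filter on low values (adjusted p 0.115).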

How the results depend on the processing

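Of 150 results on single kinases, 111 were called, and 78 of these kept direction and call under all of the 23 settings in which they were tested. Some were not tested in every setting, as where a group mean of at least 7 was required. The 23 leave out the fit of each probe set alone. There, results of further probe sets were the same in 102 cases, lost the call in 58, gained one in 20 or kept it with the opposite direction, and gained one in the same direction in 12. With no filter on low values 7 kinases rose with ConA at 14 h, and leaving out 1 array in turn gave 7 to 11. From 4 h to 14 h 8 rose without the 2 arrays with weak control signal, and leaving out 1 array gave 5 to 8. For the difference in response, leaving out 1 array gave 3 to 5 higher. Scaling by array medians or by cyclic loess gave 11 higher and 8 lower in B cells at 0 h. Mapk9 in B against T cells became 0.05 and 0.04 under these scalings. With the mean of a gene's probe sets, signs turned for B against T cells in Mapk8 (-0.43), Mapk9 (0.25), Mapk14 (1.85), Map3k1 (1.57) and Map3k7 (0.69), for the difference in response in Mapk8 (0.57) and Map3k2 (0.24), and for ConA at 14 h in Map3k7 (0.51). Single probe sets turned for B against T cells in Mapk6 (-0.51), Mapk8 (-1.91 and -1.36), Mapk9 (0.29), Mapk14 (4.97, 4.48 and 1.86), Map3k1 (3.27), Map3k4 (0.90) and Map3k7 (0.27, 2.08 and 2.27). Those of Mapk14 and Map3k1 passed the level in B cells alone, which fixes their direction in that comparison. Single probe sets also turned for ConA at 14 h in Mapk6 (-0.66), Mapk14 (0.49) and Map3k7 (0.44, 1.37 and 1.83), and for the difference in response in Mapk8 (1.24 and 0.67) and Map3k2 (1.44). The cause was not tested. Replicate numbers did not pair the arrays, with correlations of deviations from -0.46 to 0.24 for 30 pairs of the same number. With the number as a replicate block 3 of the 150 results lost their call and 0 gained one.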
